A study of Mus musculus with 6 samples.

Results

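The R3, Rm and R4 enhancers and the Nprl3 promoter of the mouse α-globin locus lie side by side in 19 kb of chromosome 11, from 32153001 to 32172000 of the mm9 build. The members described here are the NlaIII restriction fragments whose midpoint falls in this interval. They number 87 of the 88602 fragments listed in the 12 tables analysed, and each of the 87 was seen from both viewpoints, which are the enhancer R2 and the promoter of Mpg. The rule uses their position alone. All samples were Ter-119+ erythroid cells of the spleens of female C57BL/6 mice that had received phenylhydrazine, selected with magnetic beads and fixed with formaldehyde. Wild type cells (WT, 3 biological replicates) were compared with cells of D3839 mice (3 biological replicates), in which the CTCF sites HS-38 and HS-39, upstream of the enhancers, are deleted. Phenylhydrazine destroys red cells and fills the spleen with erythroid precursors, so both genotypes were studied under induced anaemia. The tables list contacts and no expression, so the labelled cell type could not be checked against its markers. The libraries of the genotypes were made with different kits, and kit and genotype cannot be told apart in any comparison below.

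Enhancers are stretches of DNA that bind transcription factors and raise the output of promoters that may lie far away. In erythroid cells the α-globin genes are served by the cluster R1, R2, R3, Rm and R4, of which R1 and R2 are known as strong enhancers and R3, Rm and R4 as weak ones when tested alone. R1, R2, R3 and Rm sit inside Nprl3, a gene read on the minus strand that encodes a subunit of the GATOR1 complex, an inhibitor of mTORC1 signalling, and R4 lies just beyond its start site, on the side of the globin genes. CTCF is a DNA-binding protein at which loop extrusion by cohesin stalls, and its sites around the α-globin enhancers limit which promoters they meet. Mpg, a DNA repair glycosylase gene, lies on the far side of HS-38 and HS-39 as seen from the enhancers.

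Tri-C reads 3C ligation products that hold the viewpoint and at least 2 other fragments, called reporters. Each deposited count is a contact of 2 reporters with the viewpoint on the same allele, so that each contact has 2 reporter ends. An element was given a window of 5 kb, its own 1 kb bin and 2 kb on each side, cut where neighbouring windows meet. The R3 window (bin 32156001) holds 30 fragments, the Rm window (bin 32164001) 26 and the R4 window (bin 32169001) 13. The 3 kb between the R3 and Rm windows hold 13 fragments, and the 1 kb from the R2 segment to the R3 window holds 5. The windows of R3 and Rm lie in introns and exons of Nprl3. The start site of Nprl3, at 32167707, falls inside the R4 window.

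The sequence sets the resolution with which each element can be seen, because a reporter end is placed by its whole fragment. A digest in silico cut the interval into 109 fragments, of which the 87 in the tables are all matched and 22 are not listed. AGATAA, the core of the site bound by GATA factors, was searched on both strands. The nearest match to the centre of the R3 bin starts at 32156323, that of Rm at 32164124 and that of R4 at 32169134. The R3 and Rm matches lie on fragments of 444 and 443 bp, while the R4 match lies on a fragment of 1308 bp. The 5 kb windows hold 2 matches at R3, 5 at Rm and 3 at R4, and the 180 kb region holds 94. Stretches of 86 bases around the 3 matches are printed to show where in each element the nearest match lies. They hold AGATAA because they were cut around it, and 4.11% of 2093 windows of that length across the region hold it. All lie on the plus strand of mm9, with the match in capitals (TTATCT is AGATAA read on the other strand), at chr11:32156283-32156368 in an exon of a non-coding Nprl3 transcript, chr11:32164084-32164169 in an intron and chr11:32169094-32169179 between genes.
R3: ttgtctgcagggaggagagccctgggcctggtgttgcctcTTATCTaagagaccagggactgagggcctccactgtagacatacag
Rm: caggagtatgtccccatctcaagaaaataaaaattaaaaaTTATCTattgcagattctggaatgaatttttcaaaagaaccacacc
R4: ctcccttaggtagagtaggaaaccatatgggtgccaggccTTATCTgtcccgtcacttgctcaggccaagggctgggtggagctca

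The centre of R4 is cut by a single NlaIII site, CATG, which leaves long fragments of 1308 bp (32168084 to 32169391) and 1871 bp (32169392 to 32171262) on its sides. The 1 kb bin of R4 itself holds no fragment midpoint, so its 0 is a product of the digest and not a measured absence of contact. The stretch chr11:32169242-32169541 around that site is printed on the plus strand, with CATG in capitals. The upstream part of the fragment that holds the Nprl3 start site is chr11:32167708-32167884, printed on the minus strand with its CATG in capitals. The fragments with most reporter ends in the R3 and Rm windows follow, with the sites that bound them, from the plus strand at chr11:32155813-32156028 and chr11:32163333-32163500.
R4 site: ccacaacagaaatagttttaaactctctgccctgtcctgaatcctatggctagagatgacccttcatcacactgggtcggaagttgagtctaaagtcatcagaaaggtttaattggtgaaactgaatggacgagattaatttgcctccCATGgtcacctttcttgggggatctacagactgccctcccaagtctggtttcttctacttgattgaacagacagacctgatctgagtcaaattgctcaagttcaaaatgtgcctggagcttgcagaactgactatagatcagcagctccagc
Nprl3 upstream: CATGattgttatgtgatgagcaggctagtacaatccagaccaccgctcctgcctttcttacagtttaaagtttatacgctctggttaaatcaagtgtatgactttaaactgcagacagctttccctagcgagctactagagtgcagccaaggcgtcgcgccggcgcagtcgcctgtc
R3 fragment: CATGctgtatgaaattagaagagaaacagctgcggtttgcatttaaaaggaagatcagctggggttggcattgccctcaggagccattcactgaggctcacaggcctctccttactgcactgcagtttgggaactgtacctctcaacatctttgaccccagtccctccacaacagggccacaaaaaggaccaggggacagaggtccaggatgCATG
Rm fragment: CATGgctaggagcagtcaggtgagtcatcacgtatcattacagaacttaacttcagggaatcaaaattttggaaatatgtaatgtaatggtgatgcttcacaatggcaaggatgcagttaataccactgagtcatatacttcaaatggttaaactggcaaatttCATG

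Between R3 and Rm the tables are blind to part of the sequence. A tandem repeat with a unit of 35 bp runs from 32159656 to 32160145. Its 11 identical 35 bp copies are not listed in the tables, and 3 fragments of 25 bp inside it are. Of these, the fragments at chr11:32159864-32159892 and chr11:32159899-32159927 have the same letters and the one at chr11:32159829-32159857 differs. All are printed from the plus strand with the bounding sites in capitals, beside one unlisted copy at chr11:32159654-32159692.
Repeat 1: CATGgacggcctgcacactcactgcCATG
Repeat 2: CATGggccgcctgcacactcactgcCATG
Repeat 3: CATGggccgcctgcacactcactgcCATG
Unlisted copy: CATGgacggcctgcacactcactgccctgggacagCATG
In all, 601 of the 650 unlisted bp of the interval, and 16 of its 22 unlisted fragments, lie between the R3 and Rm windows, so that the sequence against which both elements are set is the least visible one. Among the 18 listed fragments under 50 bp, 15 have 1 exact copy in the mm9 genome and 3 have more. An end on those 3 fragments cannot be placed by sequence alone.

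The 180 kb region from 32070001 to 32250000, less the viewpoint's bin and its neighbours, held from 8651 to 16115 contacts per R2 table and from 10237 to 18951 per Mpg table. Contacts with an end in the interval numbered from 2757 to 5077 for R2 and from 441 to 1580 for Mpg, and Mpg values therefore carry the larger counting error. The limit that a count of 0 allows, 3 ends, lay between 0.00792% and 0.0173% of the ends of a table, and covers counting error only. The share of chromosome 11 contacts inside the region ran for R2 from 46.0% to 48.2% among WT samples and from 63.1% to 66.9% among D3839 samples, and for Mpg from 32.8% to 41.2% and from 49.4% to 53.8%. Shares below are relative to the region, so this shift between the groups is not part of them. WT replicate 3 stood apart in contacts within a single 1 kb bin, at 41.2% of its R2 contacts with the interval against 22.4% to 32.5% in the other samples, and at 39.0% of its Mpg contacts against 20.9% to 30.4%.

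Seen from R2, which lies 5 kb from R3, 13 kb from Rm and 18 kb from R4 in bins, the interval took a like share of all reporter ends in both genotypes. It held 24.99%, 24.4% and 22.9% of the ends for WT replicates 1, 2 and 3, and for D3839 it held 24.0%, 24.6% and 23.8% in the same order. The groups overlapped, with means of 24.1% ± 1.07 (SD, n = 3) and 24.1% ± 0.405 (SD, n = 3) and a two-sided exact permutation p of 1. The test of 3 against 3 samples cannot go below 0.1.

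The R3 window received 11.2%, 10.9% and 10.5% of the R2 ends in WT and 10.1%, 10.2% and 10.1% in D3839. All D3839 samples were below all WT samples, with means of 10.9% ± 0.353 and 10.1% ± 0.0308 (SD, n = 3). The edgeR quasi-likelihood test over the 22 segments of the region gave a log2 fold change of -0.10 (SE 0.0645, adjusted p = 0.215), which does not pass 0.05. Its sign turned to 0.04 without contacts inside a 1 kb bin and to 0.36 with all chromosome 11 contacts as the library size, under which Rm was at 0.42 and R4 at 0.62 and all 3 passed the test as higher in D3839. The Rm window received 6.26%, 6.14% and 5.97% in WT and 5.69%, 6.28% and 5.99% in D3839, and the groups overlapped. The R4 window received 2.78%, 2.74% and 2.29% in WT and 2.89%, 3.16% and 2.67% in D3839, again with overlap, by edgeR at a log2 fold change of 0.16 (SE 0.112, adjusted p = 0.234).

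The sequence between R3 and Rm received 2.76%, 2.66% and 2.44% of the R2 ends in WT and 2.98%, 2.66% and 2.904% in D3839. The 1 kb next to R2 received 2.00%, 1.97% and 1.73% in WT and 2.34%, 2.34% and 2.13% in D3839, with every D3839 sample above every WT sample (log2 fold change 0.26, SE 0.119, adjusted p = 0.124). Of the 5 segments of the interval, 0 passed the test in the R2 tables, and 1 was higher at an unadjusted p under 0.05, while over all 22 segments 18.2% were called higher and 9.09% lower in D3839. Groups did not overlap for 1 segment in each direction, against 22.7% of the 22 in each direction. As shares of the interval's own R2 ends, R3 took 44.6% to 45.8% in WT samples against 41.3% to 42.5% among D3839, and the 1 kb next to R2 7.53% to 8.06% against 8.92% to 9.77%, both without overlap (exact permutation p = 0.1, n = 3). With all chromosome 11 contacts as the library size, 5 of the 5 segments were called higher, as were 17 of the 22. The interval held from 18.6% to 20.99% of the chromosome 11 contacts among WT samples and from 23.5% to 26.1% among D3839 samples.

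Seen from Mpg, whose bin lies 30 kb from that of R3, 38 kb from Rm and 43 kb from R4, every window of the interval took a larger share of the ends in D3839. The interval held 2.83%, 3.05% and 4.37% of the ends in WT and 5.67%, 5.88% and 5.63% in D3839. WT replicate 3 was the highest of its group and still below each D3839 sample. The means were 3.42% ± 0.833 (SD, n = 3) and 5.73% ± 0.136 (SD, n = 3), a ratio of 1.68, with an exact permutation p of 0.1, the smallest that 3 against 3 allow.

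For R3 the Mpg shares were 1.04%, 1.34% and 1.87% in WT and 2.01%, 2.30% and 2.16% in D3839. All D3839 values were above all WT values, with WT replicate 3 close below the lowest of them. The log2 fold change was 0.60 (SE 0.215, edgeR adjusted p = 0.0382). For Rm the shares were 0.630%, 0.918% and 1.16% in WT and 1.51%, 1.45% and 1.36% in D3839 (log2 fold change 0.67, SE 0.226, edgeR adjusted p = 0.0313). The groups of Rm did not overlap either. For R4 they were 0.650%, 0.386% and 0.620% in WT and 0.902%, 1.06% and 1.07% in D3839 (log2 fold change 0.86, SE 0.228, edgeR adjusted p = 0.0129).

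The sequence between R3 and Rm, which holds none of the 3 elements, passed the same test. Its Mpg shares were 0.353%, 0.249% and 0.470% in WT and 0.836%, 0.716% and 0.718% in D3839 (log2 fold change 1.06, SE 0.251, edgeR adjusted p = 0.00867). The 1 kb next to R2 held 0.153%, 0.156% and 0.255% in WT and 0.412%, 0.353% and 0.324% in D3839 (log2 fold change 0.92, SE 0.276, edgeR adjusted p = 0.0208). All 5 of 5 segments of the interval were called higher and none overlapped, against 45.5% of the 22 segments of the region called higher, 18.2% called lower and 54.5% higher with no overlap. The R3 and Rm calls were lost under TMM normalization (log2 fold changes 0.36 and 0.43), under DESeq2 (0.31 and 0.38), and in each fit that left out WT replicate 1, WT replicate 2 or any D3839 replicate, in which R3 lay between 0.42 and 0.65 and Rm between 0.47 and 0.71. The R4 call was lost with each fragment pair counted a single time, where the log2 fold change was 0.39, and without D3839 replicate 2 or 3 (0.83 and 0.82), and the call next to R2 without WT replicate 1 or any D3839 replicate (0.79 to 1.00). Counted over the 22 segments, 10 were called higher and 4 lower with the region total, 5 and 5 with TMM.

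**Figure D1:**
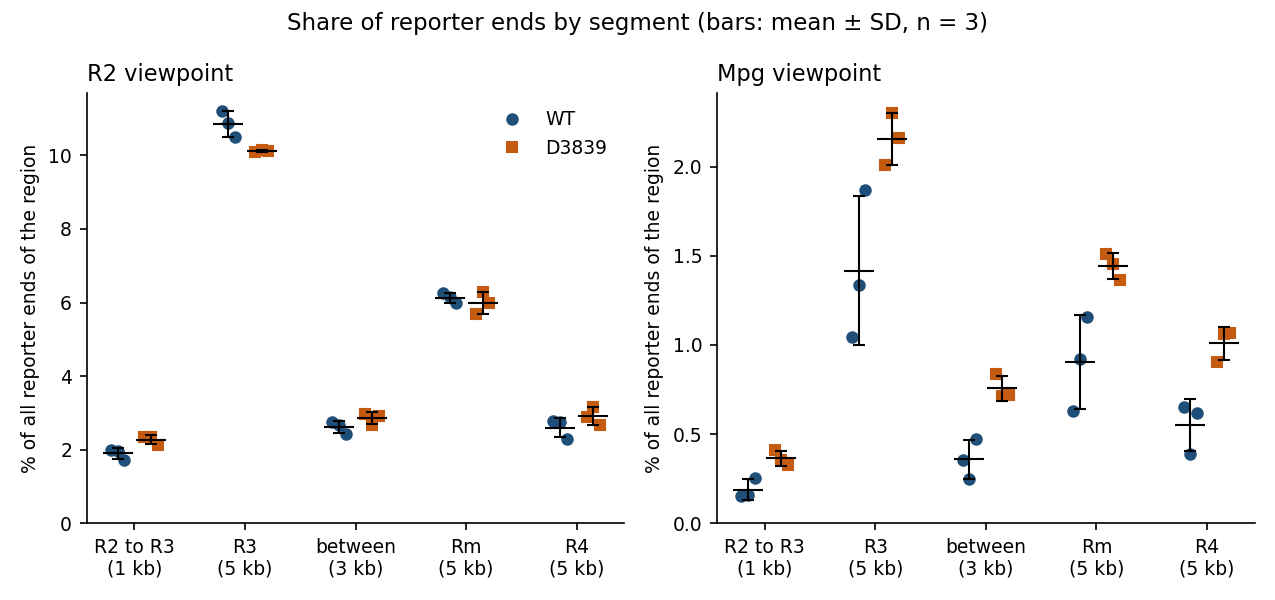
Share of all reporter ends of the region (%) in each segment of the interval, from the R2 viewpoint (left) and the Mpg viewpoint (right), with points for samples (WT circles, D3839 squares) and bars for mean ± SD of 3. From R2 the groups lie close together, with R3 at 10.1% to 11.2%, while from Mpg each D3839 sample lies above each WT sample in all 5 segments.

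The Nprl3 promoter was measured in a window of 2 kb on each side of the start site, with 15 fragments, which overlaps the Rm and R4 windows. From R2 it received 3.41%, 3.88% and 2.56% of the ends in WT and 3.91%, 4.20% and 3.53% in D3839, and the groups overlapped. From Mpg it received 0.502%, 0.454% and 0.574% in WT and 1.02%, 0.788% and 0.837% in D3839, with no overlap. A narrower segment from 32166001 to 32168000, with 10 fragments and fitted beside windows of 1 kb on each side of the elements, was higher in D3839 from Mpg (log2 fold change 0.87, SE 0.179, edgeR adjusted p = 0.00362). From R2 the same segment did not pass the test (log2 fold change 0.23, SE 0.153, edgeR adjusted p = 0.229). In the Mpg fit with these narrower windows the R3 call was lost (log2 fold change 0.53, SE 0.237, edgeR adjusted p = 0.0784). Rm and R4 passed in it (edgeR adjusted p = 0.0313 and 0.00222).

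The D3839 to WT difference was compared between viewpoints in the same samples, as the log2 ratio of the Mpg share to the R2 share. For R3 this ratio was between -3.42 and -2.49 in WT and between -2.33 and -2.14 in D3839. For Rm it was between -3.31 and -2.37 in WT and between -2.13 and -1.91 in D3839, and for R4 between -2.83 and -1.88 against -1.68 and -1.33. None of these ranges overlapped, and the differences of the means were 0.74, 0.76 and 0.74 (exact permutation p = 0.1 each, n = 3 per group). For the sequence between R3 and Rm the difference was 1.00. The ratio was not taken for the other segments of the region, so whether these differences are particular to the interval was not tested. In the R1 segment, outside the interval, the mean share went from 2.30% in WT to 3.81% in D3839 from Mpg and from 8.74% to 9.21% from R2.

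Within the interval the ends were also spread differently by viewpoint. R3 took 43.5% ± 1.80 (SD, n = 6) of the interval's R2 ends and 39.4% ± 3.32 of its Mpg ends, lower from Mpg in 6 of 6 samples. R4 took 11.4% ± 0.966 of the R2 ends and 17.1% ± 3.70 of the Mpg ends, higher from Mpg in 6 of 6 samples. The 1 kb next to R2, without a named element, took 8.63% ± 0.906 and 5.89% ± 0.740, lower from Mpg in 6 of 6 samples. The two-sided exact sign-flip p was 0.03125 for each (adjusted over 6 comparisons 0.0469), the smallest that 6 samples allow. R3 is the element next to R2 and R4 the farthest from it, and the part of distance in these shares was not tested. Rm took 25.1% from R2 and 25.7% from Mpg, higher from Mpg in 3 of 6 samples (exact p = 0.656), and the sequence between R3 and Rm took 11.3% and 11.8% (exact p = 0.469). The shares were also taken with 3 bins left out on each side of the viewpoint. From R2 this drops the 1 kb next to R2 and the first 1 kb of the R3 window, and from Mpg nothing of the interval. The shares then cover unlike sequence by viewpoint, so their difference cannot tell how far the bins near the viewpoint matter. In that setting the Mpg minus R2 difference was -5.39 percentage points for Rm and -2.10 for the sequence between R3 and Rm (main setting 0.63 and 0.52). It was -1.61 for R3 and 3.15 for R4 (main setting -4.11 and 5.71). The exact sign-flip p was 0.03125, 0.03125, 0.28125 and 0.0625 in that order over 6 samples, so the R3 and R4 differences did not pass. Per fragment the R3 difference was -1.55 and did not pass.

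**Figure D2:**
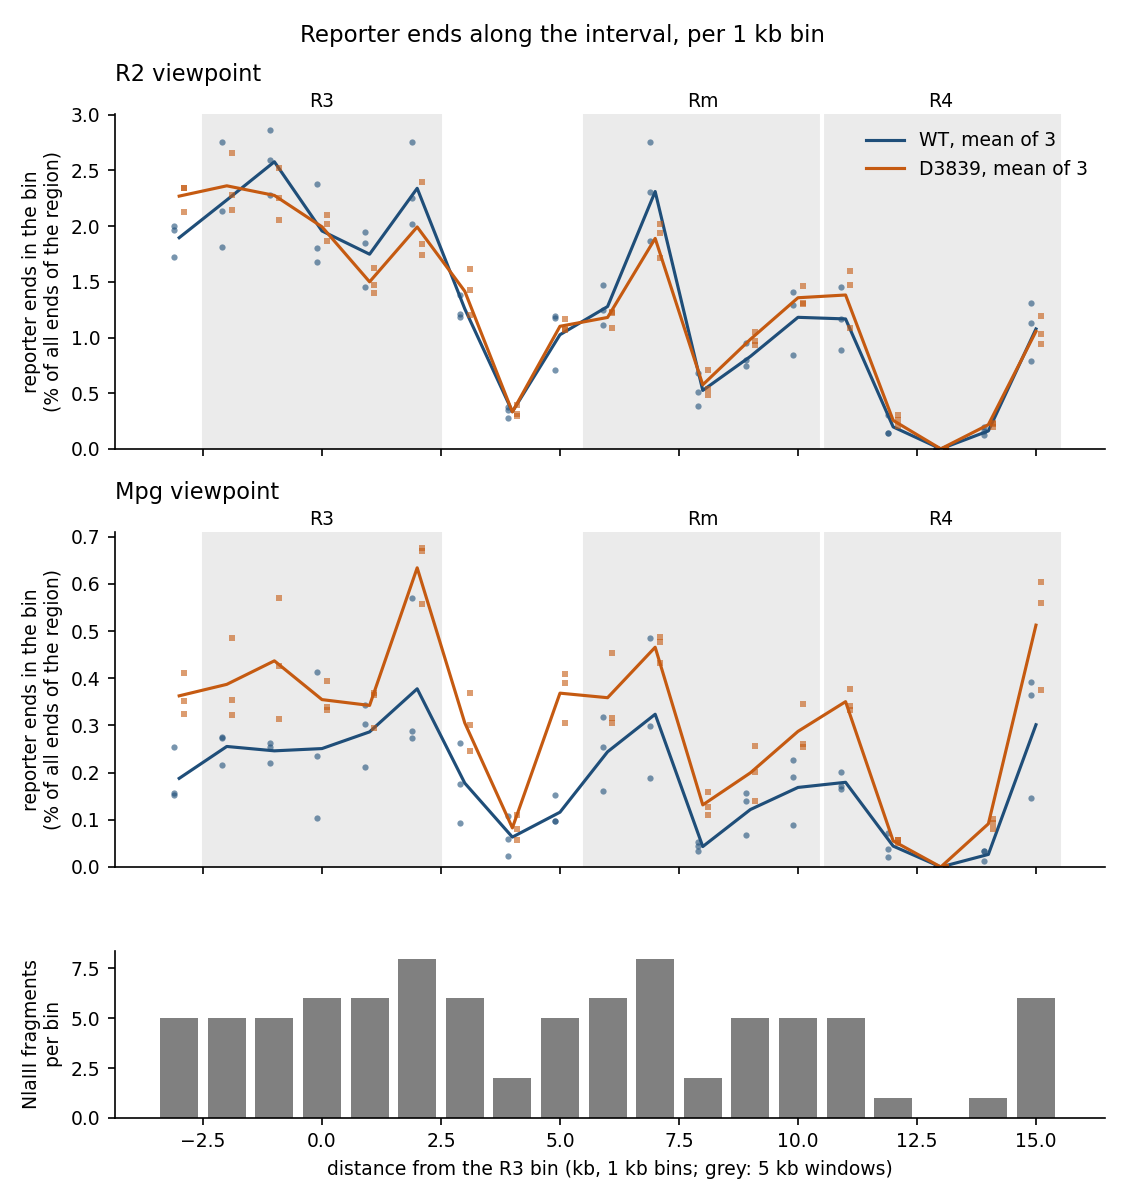
Reporter ends per 1 kb bin of the interval as % of all ends of the region, against the distance from the R3 bin in kb, for R2 (top) and Mpg (middle), with lines for means of 3 and points for samples; grey areas are the 5 kb windows and the lower panel counts NlaIII fragments per bin. The dips between the grey areas of R3 and Rm, and at R4, fall in bins with few or no fragments.

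How far an element stands out depends on the unit. Per kb of sequence, mean R2 shares in WT were 2.17% for R3, 1.23% for Rm, 0.872% for the sequence between them and 0.520% for R4. Per fragment they were 0.362% for R3, 0.236% for Rm, 0.201% between them and 0.200% for R4, so that R4 was the lowest per kb and level with the sequence between R3 and Rm per fragment. The 1 kb between the R2 segment and R3, without a named element, had 0.379% per fragment in WT. From Mpg the WT means per fragment were 0.0472% for R3, 0.0425% for R4, 0.0347% for Rm and 0.0275% between R3 and Rm. The D3839 means had another order, with 0.0777% for R4, 0.0719% for R3, 0.0582% between R3 and Rm and 0.0555% for Rm. The 1 kb next to R2 had 0.0376% per fragment in WT and 0.0726% in D3839 from Mpg.

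A local ratio set the ends per fragment within 1 kb of an element's bin against the 2 kb on either side, where 1 means no excess. From R2 the mean of 6 samples was 1.03 ± 0.0992 (SD) for R3, 1.05 ± 0.221 for Rm and 0.995 ± 0.200 for R4. R3 was above 1 in 4 of 6 samples, Rm in 2 and R4 in 3. From Mpg the means were 1.02 ± 0.184, 0.890 ± 0.185 and 0.986 ± 0.212. These means lie within 1 SD of 1. The R3 ratio from R2 lay between 1.07 and 1.16 in WT and between 0.886 and 1.05 in D3839, without overlap (exact permutation p = 0.1), while for Rm and R4 the groups overlapped. The R3 groups overlapped when counted per kb, at 1.03 to 1.15 against 0.869 to 1.05, and with each fragment pair counted a single time, at 0.971 to 1.06 against 0.889 to 0.987 (exact p = 0.2 each). They did not overlap with 2 kb on each side of the bin, at 1.25 to 1.26 against 0.951 to 1.05, or without contacts inside a bin, at 1.034 to 1.096 against 0.889 to 1.031 (exact p = 0.1 each). The R4 ratio rests on 2 fragments and moved from R2 to 0.138 when counted per kb and to 1.32 with 2 kb on each side of the bin. Without contacts inside a 1 kb bin it was 1.56 ± 0.239 from R2 and 1.65 ± 0.296 from Mpg, above 1 in 6 of 6 samples each. With each fragment pair counted a single time it was 1.35 ± 0.155 from R2, above 1 in 6 of 6 samples, and 1.42 ± 0.323 from Mpg, above 1 in 5 of 6.

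Single fragments give the closest view of an element. In the R3 window the top fragment, printed above, had 123, 103 and 177 ends from R2 in WT and 149, 176 and 215 in D3839. From Mpg it had 19, 17 and 21 in WT and 36, 64 and 25 in D3839. Counts here are not corrected for the number of contacts in the region, which was greater in each D3839 table than in any WT table of the same viewpoint. As a share of the region the R2 mean of this fragment was 0.642% in WT and 0.577% in D3839.

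In the Rm window the top fragment had 52, 71 and 117 ends from R2 in WT and 129, 82 and 145 in D3839, and from Mpg 12, 6 and 41 against 46, 27 and 37. WT replicate 3 had the most ends among the WT samples for this fragment from both viewpoints. The fragment with the Nprl3 start site was the one with most ends in the R4 window, ahead of the long fragments of R4 itself. It had 57, 60 and 56 ends from R2 in WT and 98, 106 and 84 in D3839, and from Mpg 17, 13 and 10 against 36, 18 and 25. The upstream R4 fragment of 1871 bp had 3, 7 and 11 ends from Mpg in WT and 35, 37 and 29 in D3839, and its edgeR adjusted p of 0.081 did not pass.

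Of the 87 fragments, all passed the minimum of 10 ends over the 6 samples in both viewpoints. From R2, 0 were called in either direction by edgeR, 1 was higher and 6 lower at an unadjusted p under 0.05, and over 772 fragments 0.13% were called higher and 0% lower. From Mpg, 1 was called higher and 0 lower, against 1.6% in each direction over 875 fragments. Of the 87, 78 had a log2 fold change above 0 from Mpg, with a median of 0.71 against -0.07 over all fragments of the region, and 54 from R2, with a median of 0.11 against 0.01. The groups did not overlap for 25 of the 87 from Mpg, all higher, against 13.6% of all fragments in each direction. From R2 they did not overlap for 7 higher and 4 lower fragments, against 9.72% and 8.55% of all. The fits of neighbouring fragments are not independent, since a contact can hold both.

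The called fragment runs from 32161346 to 32161572 in an Nprl3 intron, between R3 and Rm and in neither window. From Mpg it had 6, 2 and 0 ends in WT and 40, 19 and 28 in D3839 (log2 fold change 2.84, SE 0.731, edgeR adjusted p = 0.0382), and the groups did not overlap. From R2 it had 32, 22 and 35 ends in WT and 65, 68 and 67 in D3839 (edgeR adjusted p = 0.513). The Mpg call was lost when WT replicate 2 or 3 or any D3839 replicate was left out (adjusted p from 0.0551 to 0.166). It is printed from the plus strand at chr11:32161344-32161574 with the bounding sites in capitals, because it is the only fragment of the interval called and holds a run of 14 copies of GAAA.
Called fragment: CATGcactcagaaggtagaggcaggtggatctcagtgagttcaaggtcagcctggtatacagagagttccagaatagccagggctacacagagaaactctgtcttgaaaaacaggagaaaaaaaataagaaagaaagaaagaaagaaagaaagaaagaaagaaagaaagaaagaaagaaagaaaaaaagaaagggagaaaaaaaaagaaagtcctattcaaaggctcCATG

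The length of the fragments was compared between genotypes, and no share passed 0.05 in a design that cannot give an exact p below 0.1. Ends on fragments under 50 bp made up 13.9%, 13.6% and 18.9% of the interval's R2 ends in WT and 12.3%, 11.3% and 13.6% in D3839, with WT replicate 3 highest and no overlap (exact permutation p = 0.1). From Mpg they made up 15.9%, 12.0% and 20.5% in WT and 14.2%, 10.02% and 13.2% in D3839, with overlap. In the rest of the region the R2 shares were 16.7%, 15.3% and 21.9% against 16.1%, 14.8% and 18.2%, again with WT replicate 3 highest and with overlap, and the Mpg shares had means of 20.7% and 17.1% without overlap (exact p = 0.1). Fragments of 200 bp and over had a median log2 fold change of 0.20 from R2 and 0.99 from Mpg, and those under 50 bp -0.14 and 0.13. In the rest of the region the medians were 0.24 and -0.15 from R2, and 0.05 and -0.41 from Mpg. From Mpg, 35 of 35 long fragments of the interval and 138 of 270 in the rest of the region had a value above 0. The part of fragment length in the differences between genotypes was not tested, and without fragments under 50 bp the Mpg log2 fold changes were 0.62 for R3, 0.75 for Rm and 0.80 for R4, each still called.

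**Figure D3:**
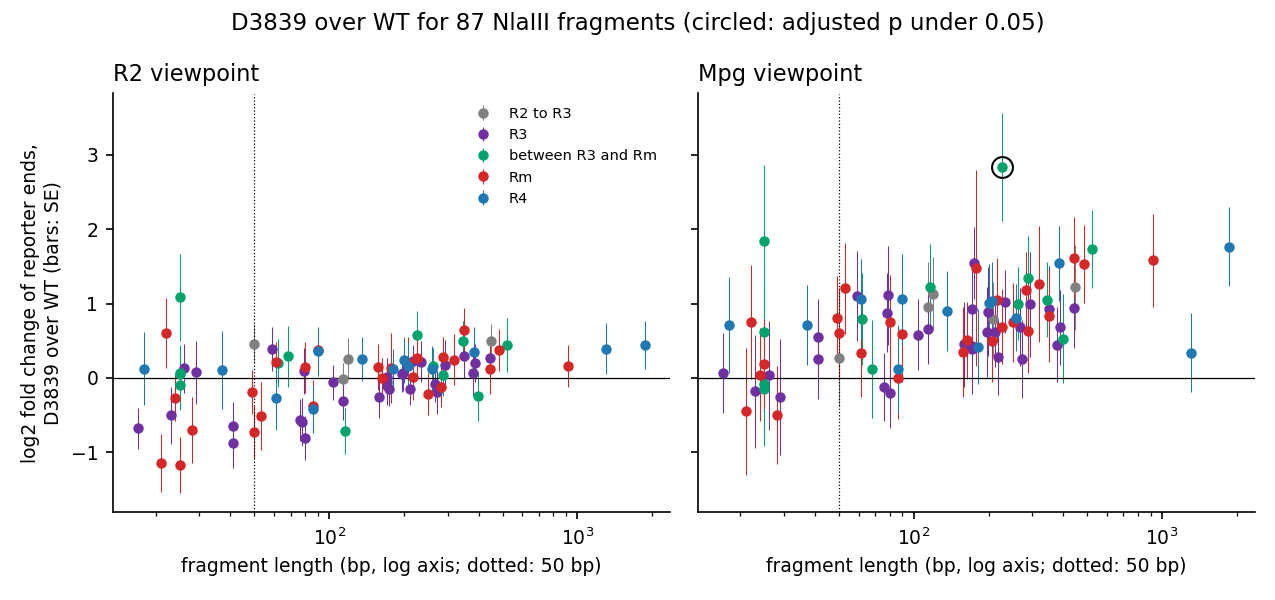
Log2 fold change of reporter ends, D3839 over WT, with its SE, against fragment length in bp on a log axis, for the 87 fragments from R2 (left) and Mpg (right); colours give the segment and the circle marks the fragment called from Mpg. From R2 the points lie around 0, and from Mpg 78 of 87 lie above it. The Mpg median is 0.99 for fragments of 200 bp and over and 0.13 for those under 50 bp, of which a fragment of 25 bp reaches 1.84.

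**Figure D4:**
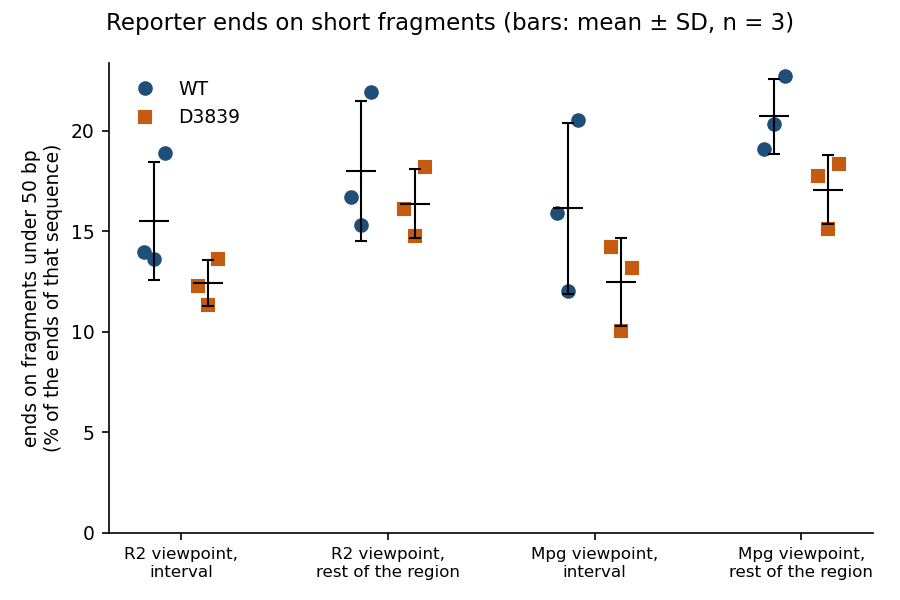
Ends on fragments under 50 bp, as % of the ends of the interval or of the rest of the region, for each viewpoint, with points for samples and bars for mean ± SD of 3. WT replicate 3 is the highest sample in each of the 4 columns.

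Contacts of the elements with other segments were read as pairs of segments. From R2, R3 met the R1 segment in 110, 81 and 77 contacts in WT and 153, 198 and 188 in D3839, Rm in 78, 52 and 51 against 122, 112 and 120, and R4 in 24, 35 and 21 against 64, 56 and 47. As shares of the region the R3 contacts with R1 were 0.896% ± 0.283 in WT and 1.16% ± 0.202 in D3839 (SD, n = 3 each), and the groups overlapped. The shares of Rm with R1 were 0.605% ± 0.213 and 0.756% ± 0.0107, and those of R4 with R1 0.273% ± 0.123 and 0.357% ± 0.0574, also with overlap. None of the 3 passed the test (edgeR adjusted p = 0.430, 0.598 and 0.630). With the Hba-1 promoter segment, R3 had 66, 48 and 61 contacts in WT and 86, 85 and 79 in D3839, Rm 50, 32 and 48 against 75, 50 and 58, and R4 36, 26 and 21 against 39, 37 and 41. The R3 shares with Hba-1 were 0.573% ± 0.113 and 0.535% ± 0.0455, and those of Rm and R4 overlapped as well. Hba-1 and Hba-2 are the adult α-globin genes and close copies of each other, so reads from the letters they share cannot be assigned to one of them with certainty.

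With Hba-2, the globin gene farther from the enhancers, counts were alike in both genotypes although the D3839 tables held more contacts in the region. R3 met it in 52, 71 and 59 contacts in WT and 37, 58 and 63 in D3839, Rm in 54, 36 and 57 against 38, 54 and 53, and R4 in 24, 32 and 28 against 35, 23 and 29. As shares of the region, R3 with Hba-2 was 0.608% ± 0.190 in WT and 0.339% ± 0.0947 in D3839 without overlap, and Rm with Hba-2 was 0.475% ± 0.0816 and 0.311% ± 0.0683 without overlap. Neither passed the test over all pairs (edgeR adjusted p = 0.115 and 0.303), and the R4 shares overlapped (adjusted p = 0.526). Groups did not overlap for 5 of the 96 tested pairs with an interval segment in this direction, against 9.09% of all 242 pairs, and for 13 of the 96 in the other direction, higher in D3839, against 16.1% of all pairs.

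Taken as shares of the contacts that leave the interval, Hba-2 made up 9.08%, 13.7% and 10.3% of those of R3 in WT and 4.26%, 5.71% and 6.78% in D3839. For Rm it made up 12.7%, 11.5% and 13.8% in WT and 6.53%, 8.85% and 9.57% in D3839. For R4 it made up 11.9%, 13.97% and 14.7% in WT and 8.39%, 5.93% and 8.48% in D3839. Every D3839 sample was below every WT sample for each of the 3 elements (exact permutation p = 0.1 each). The Hba-2 segment as a whole also held fewer of all R2 ends of the region in D3839, at 7.66% ± 0.558 against 9.43% ± 0.996 in WT, without overlap. The sequence between R3 and Rm, without an element, had 10.7%, 11.9% and 11.4% in WT against 6.82%, 5.54% and 8.43%, and its groups did not overlap either. For the 1 kb between the R2 segment and R3, also without an element, the means were 11.1% ± 4.17 and 10.5% ± 1.56 with overlap (exact p = 0.9, n = 3). Of 85 such partner shares from R2, 8.24% were lower and 15.3% higher in D3839 without overlap. From Mpg the same shares were 8.24% and 7.06%. In the other direction, the R2 segment made up a larger share of the partners in D3839. From R2, only its part outside the viewpoint's bin and neighbours is counted, on the side away from R3. It made up 17.1% ± 1.26 of the partners of R3 in WT and 19.6% ± 0.395 in D3839 (SD, n = 3). For Rm the values were 12.5% ± 3.11 and 18.8% ± 3.03, and for R4 9.95% ± 3.29 and 15.2% ± 2.11, all without overlap. This part of the segment held 9.22% ± 0.296 of all R2 ends of the region in WT and 12.1% ± 0.740 in D3839, without overlap. As shares of the region, R2 with R3 and R2 with Rm overlapped between groups and R2 with R4 did not, and none passed the test (edgeR adjusted p = 0.491, 0.266 and 0.253). The partner shares of the element-free segments, from 13 to 61 contacts a sample, were 18.3% ± 7.20 and 17.4% ± 5.62 between R3 and Rm and 16.3% ± 1.28 and 17.7% ± 2.39 next to R2, with overlap, and whether they differ from those of the elements in the change between genotypes was not tested.

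With the promoters beyond HS-38 and HS-39 the R2 tables hold few contacts of the elements. R3 met the Mpg promoter segment in 2, 12 and 3 contacts in WT and 19, 15 and 8 in D3839, Rm in 9, 4 and 3 against 10, 17 and 7, and R4 in 1, 1 and 9 against 9, 9 and 1. The promoter of Rhbdf1, which encodes an inactive rhomboid protease, met R3 in 8, 3 and 2 contacts against 7, 14 and 12, Rm in 5, 9 and 2 against 2, 8 and 6, and R4 in 0, 1 and 2 against 5, 2 and 4. None of these 6 pairs passed the test (edgeR adjusted p from 0.611 to 0.847), and the shares of each overlapped between the genotypes.

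Of 100 pairs with an interval segment seen from R2, 96 passed the minimum of 10 contacts over the 6 samples. Of these 1 was called higher by edgeR and 0 lower, against 3.31% and 0.413% of all 242 pairs, and 10 were higher and 3 lower at an unadjusted p under 0.05. The called pair joined R4 with the 12 kb from the Snrnp25 segment to the Rhbdf1 promoter, with 0, 0 and 0 contacts in WT and 14, 6 and 11 in D3839 (edgeR adjusted p = 0.00885). Against a floor of 3 contacts over the WT group, this is at least 6.86-fold higher. The call was lost with DESeq2 (adjusted p = 0.112) and when WT replicate 2 (adjusted p = 0.0567) or D3839 replicate 1 (0.111) was left out. The median log2 fold change of the 96 pairs was 0.20, beside 0.18 over all pairs.

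Seen from Mpg, 5 of 86 tested pairs of the interval were called higher in D3839, about the share of all Mpg pairs (6.28%). They include the pairs of R3 with the HS-38/-39 segment, the body of Mpg and the sequence from Snrnp25 to Rhbdf1. R3 with the HS-38/-39 segment had 10, 3 and 4 contacts in WT and 29, 36 and 32 in D3839 (log2 fold change 1.97, SE 0.568, edgeR adjusted p = 0.0191). R3 with the sequence from Snrnp25 to Rhbdf1 had 4, 7 and 5 in WT and 29, 35 and 29 in D3839 (1.98, SE 0.571, adjusted p = 0.0191). R3 with the body of Mpg had 16, 7 and 19 in WT and 28, 83 and 60 in D3839 (1.55, SE 0.466, adjusted p = 0.0232). None of these groups overlapped. R3 with the Il9r flank had 3, 2 and 6 contacts against 11, 2 and 6 (adjusted p = 0.834), and with the Snrnp25 promoter 1, 1 and 2 against 1, 3 and 0, below the minimum for testing. R3 with the Rhbdf1 promoter (log2 fold change 1.82) and with the Mpg promoter (1.69) did not pass, although both values lie above that of the called pair with the body of Mpg. The first 3 pairs are those named by the smallest p, and the other two called pairs were R3 with R1, at 1, 2 and 6 contacts in WT against 29, 22 and 9 in D3839 (adjusted p = 0.0267), and Rm with the sequence between R3 and Rm, at 2, 2 and 11 against 33, 16 and 25 (adjusted p = 0.0417).

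Of 99 such pairs seen from Mpg, 86 were tested, and 5 were called higher and 0 lower by edgeR, against 6.28% and 2.09% of all 239 pairs. The median log2 fold change was 0.90 for the 86 pairs, of which 75 were above 0, and 0.61 over all pairs. Groups did not overlap for 25 of the 86, all higher, against 26.8% of all pairs higher and 6.69% lower. Under TMM normalization, DESeq2, or without contacts inside a 1 kb bin, 0 of these pairs were called. With all chromosome 11 contacts as the library size, 23 were called. Over all Mpg pairs the median moved from 0.61 with the region total to 0.16 with TMM and 1.08 with chromosome 11, and the calls from 15 higher and 5 lower to 1 and 20 with TMM and 82 and 1 with chromosome 11. Without WT replicate 1 the calls of the interval numbered 3, without D3839 replicate 1 they numbered 1, and without D3839 replicate 2 they numbered 0.

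The elements' Mpg contacts with the globin promoters stayed at a few counts per sample. R3 with Hba-1 had 3, 3 and 12 contacts in WT and 1, 14 and 12 in D3839, and with Hba-2 14, 3 and 8 against 9, 11 and 8. Rm had 4, 3 and 3 against 4, 6 and 13 with Hba-1, and 2, 12 and 0 against 10, 6 and 6 with Hba-2. R4 had 13, 0 and 2 against 14, 8 and 6 with Hba-1, and 6, 0 and 0 against 5, 7 and 5 with Hba-2. All of these groups overlapped. With R1, Rm had 6, 8 and 4 contacts against 15, 15 and 16 and R4 had 5, 0 and 3 against 8, 8 and 14, which did not overlap as shares and did not pass the test (edgeR adjusted p = 0.395 and 0.258).

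R3 with the Mpg promoter segment, beside the viewpoint, had 6, 7 and 1 contacts in WT and 30, 21 and 18 in D3839, and with the Rhbdf1 promoter 0, 5 and 7 against 26, 21 and 14. Neither pair overlapped between groups and neither passed the test (edgeR adjusted p = 0.0658 each). Rm had 7, 0 and 5 against 7, 19 and 9 with the Mpg promoter and 3, 10 and 9 against 11, 15 and 13 with that of Rhbdf1. R4 had 2, 1 and 1 against 3, 7 and 3, and 3, 5 and 7 against 2, 14 and 11. The shares of Rm and of R4 overlapped between groups for both promoters.

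The partners of each element, and of the 1 kb next to R2, were set against those of the sequence between R3 and Rm in the same sample, over 68 comparisons per viewpoint. None passed Benjamini-Hochberg adjustment of the sign-flip test (smallest adjusted p 0.607 for R2 and 0.708 for Mpg). With 6 samples this test cannot go below 0.03125. A few comparisons at that limit cannot pass adjustment over 68, so the result does not show that the partners are alike. R4 stood higher in each sample for the segment next to it. Of its R2 partner contacts, 23.1% fell in the segment of Hba-x, the embryonic ζ-globin gene, against 11.5% of those of the sequence between R3 and Rm, higher in 6 of 6 samples, and from Mpg the values were 21.9% and 5.53%, also in 6 of 6. The Hba-x segment adjoins the R4 window, so nearness in the sequence comes with this value. From R2, R4 was also higher in 6 of 6 samples with Hba-1 (11.8% against 9.44%) and Hba-2 (10.6% against 9.14%). With each fragment pair counted a single time, R4 was higher in 3 of 6 samples with Hba-1 and in 4 of 6 with Hba-2.

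**Figure D5:**
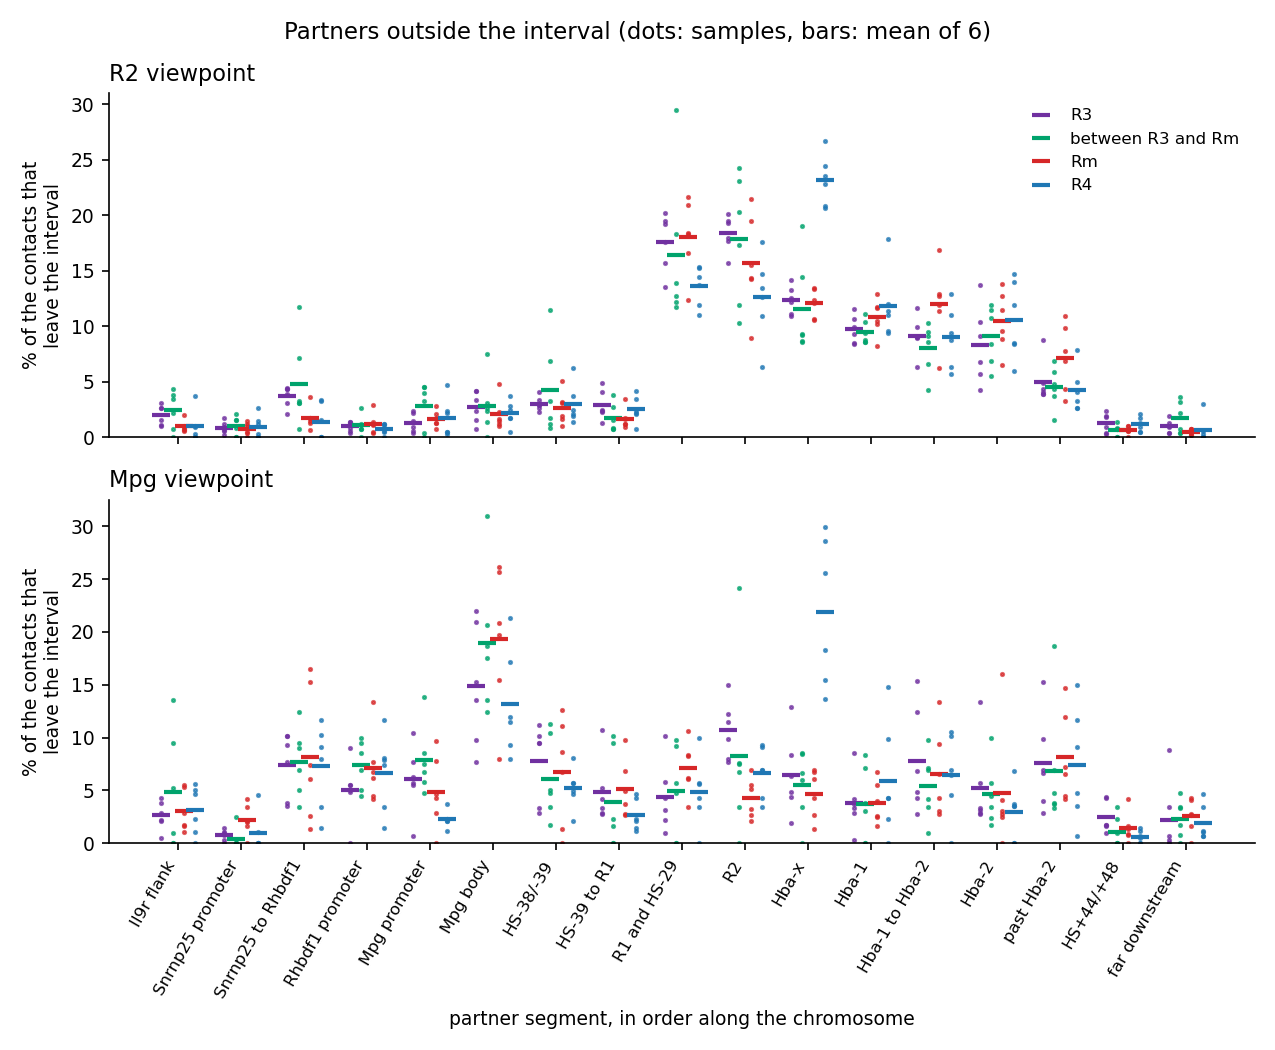
Share of the contacts leaving the interval (%) that fall in each partner segment, ordered along the chromosome, for R3, the sequence between R3 and Rm, Rm and R4, with dots for the 6 samples and bars for their mean. From R2 the partners concentrate between the R1 segment and Hba-2, from Mpg the Mpg body leads for R3, Rm and the sequence between them, and R4 stands out at Hba-x from both viewpoints.

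The elements also met each other. From R2, R3 met Rm in 112, 91 and 101 contacts in WT and 172, 204 and 168 in D3839, R3 met R4 in 48, 27 and 33 against 47, 74 and 38, and Rm met R4 in 49, 49 and 33 against 72, 84 and 72. As shares of the region the groups of each pair overlapped. Set against the remaining 1 kb bin pairs at the same distance from each other, the mean of 6 samples was 6.03 ± 0.676 (SD) for R3 with Rm, 1.11 ± 0.401 for R3 with R4 and 1.46 ± 0.297 for Rm with R4. From Mpg, R3 with Rm had 11, 11 and 9 contacts in WT and 21, 23 and 25 in D3839, R3 with R4 0, 2 and 4 against 12, 12 and 5, and Rm with R4 2, 2 and 7 against 28, 19 and 6. As shares of the region the first 2 pairs did not overlap between groups and the last did, and none passed the test (edgeR adjusted p = 0.434, 0.199 and 0.0726). The Mpg ratios to the same distance were 0.666 ± 0.159 (SD, n = 3) in WT and 0.641 ± 0.0984 in D3839 for R3 with Rm (exact permutation p = 0.8) and 0.120 ± 0.0830 and 0.294 ± 0.182 for Rm with R4 (exact p = 0.2). For R3 with R4 the WT samples lay between 0 and 0.135 with a mean of 0.0890, and the D3839 samples between 0.151 and 0.347 with a mean of 0.261, without overlap (exact p = 0.1). This measure takes no account of the distance of either element from the viewpoint, and R3 and Rm are close to R2 and far from Mpg. From R2, R3 with Rm had a ratio of 4.63 when counts were divided by fragment pairs and of 6.09 with each fragment pair counted a single time. The R2 ratios with R4 moved both ways. They were 0.257 for R3 and 0.204 for Rm with 1 kb on each side, 1.75 and 2.52 by fragment pairs, and 2.00 and 1.32 with single counting. From Mpg, the means of 6 samples moved from 0.175 to 0.285 for R3 with R4 and from 0.207 to 0.355 for Rm with R4 by fragment pairs.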

How the data were processed

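The data are 12 tables of Tri-C contacts in mouse erythroid cells, 1 for each of 3 WT and 3 D3839 samples and each of the viewpoints R2 and Mpg. The authors deposited raw counts per pair of NlaIII fragments of chromosome 11 in mm9, not normalized. Per the methods and the submitters' processing notes, reads were trimmed (Trim Galore), merged, cut in silico, mapped (Bowtie) and passed through CCseqBasic, which removed PCR duplicates and spurious ligations, and reads with at least 2 reporters were kept. Versions of Trim Galore and Bowtie are not given in the sources used here, while the paper gives a version flag for CCseqBasic. Groups and replicate numbers come from the labels. The bins of R3, Rm and R4 came with the rule that defines the interval and match a drawing of the locus to the nearest kb, and the Nprl3 start site was looked up in the GENCODE annotation of the same build.

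Contacts with both midpoints in the 180 kb region were placed in 1 kb bins, less the viewpoint's bin and its neighbours. The region was cut into 22 segments. Reporter ends per segment and fragment, and contacts per pair of segments, were filtered at a summed minimum of 10 and compared by the quasi-likelihood test of edgeR 4.0.16 (R 4.3.3), with the region total as library size and no block, and with Benjamini-Hochberg adjustment over all features of a viewpoint and a threshold of 0.05. SEs are those implied by the test statistic. Fragments of identical sequence were kept as listed. Shares and ratios were compared by exact permutation or sign-flip tests written in python 3.11.15 with numpy 2.4.6. Alternatives were TMM, DESeq2 1.42.0, the chromosome 11 library size, no count filter, a replicate block, each replicate left out, other windows and bins, contacts inside a bin left out and each fragment pair counted a single time. Two-sided p-values are given throughout.

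Named pairs were R3, Rm and R4 with R1, Hba-1, Hba-2 and the Mpg and Rhbdf1 promoters, and the 3 called pairs of smallest p in each direction without overlap. Named fragments were the one with most ends in each window, that of the Nprl3 start site and those called. The long R4 fragment was added after its values were seen. The members and lists were chosen with earlier results of these data known. The scripts were tested on simulated data. The labels call the replicates biological, and p-values measure the spread between these samples. Contacts on a read are not independent of each other, and the limits given for a count of 0 cover counting error only. The other experiments of the study were not analysed here.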

Additional observations from a re-analysis of the deposited data

Results flagged for a closer look

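The D3839 to WT difference was not the same from both viewpoints. The log2 ratio of the Mpg share to the R2 share of the same sample was higher in every D3839 sample than in every WT sample for the whole interval and for each of its 5 segments. The difference between the group means was 0.77 for the interval, 0.72 for the 1 kb between the R2 segment and R3, 0.74 for R3, 1.00 for the sequence between R3 and Rm, 0.76 for Rm and 0.74 for R4. Each has an exact permutation p of 0.1, the smallest that 3 against 3 samples allow. WT ratios of the interval ran from -3.14 to -2.39 and D3839 ratios from -2.08 to -2.06. This ratio was taken for the interval only, so the share of other segments with such a difference is not given. The R1 segment, outside the interval, held 2.30% of the Mpg ends in WT and 3.81% in D3839, without overlap. Of the R2 ends it held 8.74% and 9.21%, with overlap. The libraries of the genotypes were made with different kits, and kit and genotype cannot be told apart here.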

How the results depend on the processing

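For the R2 viewpoint, log2 fold changes near 0 changed sign: R3 was at 0.36 with the chromosome 11 library size, 0.040 without contacts inside a bin and 0.026 without adjacent fragments. Rm was at 0.42 with chromosome 11, 0.010 with 3 bins left out around the viewpoint, 0.075 without fragments under 50 bp, 0.042 with windows moved 1 kb right and from -0.069 to 0.0024 with each replicate left out, above 0 without D3839 replicate 1. The sequence between R3 and Rm was at -0.051 with windows of 1 kb, -0.011 with windows moved right and -0.074 moved left. With chromosome 11, R4 was at 0.62 and passed, and 5 segments, 20 pairs and 2 fragments of the interval were called higher. The R2 pairs called higher numbered 0 with DESeq2, windows of 1 kb and windows moved left, and 2 with windows moved right. With a replicate left out they numbered from 0 to 1, with 0 without WT replicate 2 or D3839 replicate 1. With each fragment pair counted a single time 2 were lower.

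For the Mpg viewpoint, TMM gave R3 0.36 and Rm 0.43, DESeq2 0.31 and 0.38, and windows of 1 kb gave R3 0.53, none of which passed, and R4 did not pass at 0.39 with each fragment pair counted a single time. With each replicate left out R3 ran from 0.42 to 0.86, Rm from 0.47 to 0.91 and R4 from 0.67 to 0.99, and R3 and Rm passed only without WT replicate 3. Segments called numbered 3 with TMM, DESeq2, single counting and windows moved left, and from 1 to 5 with a replicate left out, 1 without D3839 replicate 2 or 3. Pairs called numbered 0 with TMM, DESeq2, and without adjacent fragments or contacts inside a bin. They numbered 3 without fragments under 50 bp and with windows moved right, and 9 with single counting and with windows of 1 kb. With chromosome 11 they numbered 23, and with a replicate left out from 0 to 6. Fragments called numbered 12 with chromosome 11, 2 with DESeq2, 4 with single counting, and from 0 to 3 with a replicate left out, 3 without WT replicate 3 and 0 without WT replicate 2 or any D3839 replicate.

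The replicate numbers did not pair the samples: deviations of same-numbered samples over fragments correlated at a mean of -0.0238 for R2 and 0.0387 for Mpg. With the replicate block the Mpg log2 fold changes were 0.64 for R3, 0.71 for Rm and 0.89 for R4, none of which passed, and 0.95 for the 1 kb next to R2, which did not pass either, so that 1 segment, the sequence between R3 and Rm, and 0 pairs were called.

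The local ratio of R4 from R2 and Mpg was 0.138 and 0.139 per kb, 1.32 and 1.40 with 2 kb on each side, 1.56 and 1.65 without contacts inside a bin and 1.35 and 1.42 with single counting. The Mpg minus R2 difference in the share of the interval's ends was taken in percentage points. With 3 bins left out the R2 interval lacks the 1 kb next to R2 and the first 1 kb of the R3 window, and the Mpg interval lacks nothing. The differences in that setting therefore compare unlike sequence. They were -1.61 for R3, -2.10 between R3 and Rm, -5.39 for Rm and 3.15 for R4. The difference was -1.55 for R3 per fragment and -0.41 for Rm with single counting. With a replicate left out it ran from -4.80 to -3.35 for R3, from 4.47 to 6.56 for R4, from -0.23 (without WT replicate 2) to 1.31 for Rm and, for the interval's share of the region, from -19.8 to -19.0, and 5 samples cannot give an exact p below 0.0625. Ratios to the same separation from R2 were 4.63 for R3 with Rm, 1.75 for R3 with R4 and 2.52 for Rm with R4 when divided by fragment pairs, 0.257 for R3 with R4 and 0.204 for Rm with R4 with 1 kb windows, and 2.00 for R3 with R4 with single counting. From Mpg they were 0.510 for R3 with Rm, 0.285 for R3 with R4 and 0.355 for Rm with R4 by fragment pairs. With 1 kb windows they were 0.0295 for R3 with R4 and 0.0186 for Rm with R4, and R3 with R4 was at 0.268 with single counting.

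The scale moved the median log2 fold change over all R2 pairs from 0.18 to 0.0041 with TMM, 0.068 with DESeq2 and 0.64 with chromosome 11, and that over all R2 segments from 0.022 to 0.48 with chromosome 11. The calls of all R2 segments went from 4 higher and 2 lower to 4 and 0 with TMM, 4 and 3 with DESeq2 and 17 and 0 with chromosome 11, those of all R2 fragments from 1 and 0 to 4 and 4 with DESeq2, and those of all Mpg fragments from 14 and 14 to 103 and 8 with chromosome 11. The settings without adjacent fragments and without fragments under 50 bp were chosen after seeing the data. The cause of these changes was not tested. Of the 99 Mpg pairs of the interval, 13 had fewer than 10 contacts and were not tested, as were 4 of the 100 R2 pairs.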
